A study of Mus musculus with 8 samples.

Results

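The comparison set CD11b-high cells, sorted after 12 days of doxycycline (Dox), against untreated leukaemia cells of day 0, in an ATAC-seq study of the mouse acute myeloid leukaemia cells AML246. The peak summits of both lists on the autosomes, X and Y were widened by 150 bp on each side and merged, which gave 46694 regions. A summit in a region counts as an open site of the list it came from, so the regions fell into 10949 CD11b-high-only (23.4%), 11033 day-0-only (23.6%) and 24712 shared ones. Merging the lists of all 8 libraries of the series in the same way gave 68800 regions.

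Each of the 8 groups of the study was 1 library, so no difference between conditions has a replicate check and no p-value is given. Per the labels, Dox at 0.1 µg/mL restored the transcription factor PU.1 from day 0 and was withdrawn at day 12, and all cells grew in IMDM with 10% FCS and IL-3. The CD11b-high library came from viable cells with high CD11b after 12 days on Dox, and the day-0 library from total viable cells with no Dox. The other 6 libraries were unsorted viable cells taken on Dox at day 4, 8 and 12 and at 4, 8 and 12 days after its withdrawal. All libraries come from the same cell line, and the CD11b-high and day-0 libraries differ both in treatment and in the sort, so the parts of these 2 factors cannot be told apart. In such bulk libraries, fewer cells with an open site and less opening per cell cannot be told apart either.

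PU.1, encoded by Spi1, is an ETS-family factor that binds a purine-rich GGAA core and is required for the formation of macrophages, neutrophils and B cells. Low PU.1 activity in the mouse blocks myeloid maturation and leads to myeloid leukaemia. CD11b is the alpha chain of the integrin Mac-1, encoded by Itgam, and appears on the surface of monocytes, macrophages and granulocytes as they mature. ATAC-seq uses a transposase that inserts adapters into open DNA, and a peak summit is the position of highest signal within a peak.

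The promoters that carry the sequence result are shown here, as the 250 bases before the transcription start in RefSeq (GRCm38.p6, the build also called mm10), each 5′ to 3′ on the gene's strand. In the first 5, which held a CD11b-high-only region, capitals mark the PU.1 letters GAGGAAGT or their reverse complement. In the last 2, which held a day-0-only region, capitals mark the SP/KLF letters GGGCGG or their reverse complement. The windows lie at chr13:110357173-110357422 (minus strand) for Gapt, an adaptor protein of blood cells that binds Grb2. They lie at chr7:3720383-3720632 (minus strand) for the inhibitory receptor Pirb, at chr9:88731851-88732100 (minus strand) for the BCL2-family survival protein Bcl2a1d, at chr1:85961056-85961305 (minus strand) for the lipid receptor Gpr55 and at chr11:46454681-46454930 (plus strand) for the immune receptor Havcr2. Those of day 0 lie at chr7:19075950-19076199 (plus strand) for Dmwd and at chr4:55532476-55532725 (minus strand) for the transcription factor Klf4.
Gapt: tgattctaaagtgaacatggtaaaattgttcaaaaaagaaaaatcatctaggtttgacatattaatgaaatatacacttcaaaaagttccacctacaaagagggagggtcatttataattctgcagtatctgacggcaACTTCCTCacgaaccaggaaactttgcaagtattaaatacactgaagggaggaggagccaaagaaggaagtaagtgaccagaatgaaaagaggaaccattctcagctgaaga
Pirb: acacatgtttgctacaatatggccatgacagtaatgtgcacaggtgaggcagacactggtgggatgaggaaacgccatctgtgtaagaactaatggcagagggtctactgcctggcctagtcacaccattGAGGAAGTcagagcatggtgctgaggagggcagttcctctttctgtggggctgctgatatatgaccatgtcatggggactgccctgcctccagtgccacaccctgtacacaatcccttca
Bcl2a1d: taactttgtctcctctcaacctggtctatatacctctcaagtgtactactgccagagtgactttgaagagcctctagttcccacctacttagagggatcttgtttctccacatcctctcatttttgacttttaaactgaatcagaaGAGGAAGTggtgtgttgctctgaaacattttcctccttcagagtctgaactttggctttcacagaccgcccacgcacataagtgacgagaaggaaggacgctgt
Gpr55: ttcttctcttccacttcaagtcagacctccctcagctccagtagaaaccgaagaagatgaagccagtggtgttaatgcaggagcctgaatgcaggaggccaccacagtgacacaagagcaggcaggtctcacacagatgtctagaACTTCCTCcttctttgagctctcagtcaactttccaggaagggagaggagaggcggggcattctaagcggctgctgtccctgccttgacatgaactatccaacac
Havcr2: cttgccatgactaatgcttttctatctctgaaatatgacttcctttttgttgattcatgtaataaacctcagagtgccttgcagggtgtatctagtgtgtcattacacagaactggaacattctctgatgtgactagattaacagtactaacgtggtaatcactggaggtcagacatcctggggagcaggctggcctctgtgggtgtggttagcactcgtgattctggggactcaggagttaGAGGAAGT
Dmwd: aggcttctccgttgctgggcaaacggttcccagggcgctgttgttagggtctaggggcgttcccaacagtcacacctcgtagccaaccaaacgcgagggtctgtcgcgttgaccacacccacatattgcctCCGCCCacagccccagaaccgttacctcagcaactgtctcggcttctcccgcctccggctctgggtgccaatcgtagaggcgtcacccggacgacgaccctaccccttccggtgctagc
Klf4: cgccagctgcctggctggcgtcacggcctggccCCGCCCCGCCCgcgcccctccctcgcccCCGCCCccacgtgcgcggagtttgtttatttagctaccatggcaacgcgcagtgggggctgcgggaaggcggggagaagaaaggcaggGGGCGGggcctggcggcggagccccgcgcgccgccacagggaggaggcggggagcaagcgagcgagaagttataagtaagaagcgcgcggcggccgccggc

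In each of these 5 CD11b-high-only promoters the marked letters lie inside the region. Counted from the start, with negative positions before it, the match is centred at −108 in Gapt, −116 in Pirb, −100 in Bcl2a1d, −101 in Gpr55 and −4 in Havcr2. The Gapt window is 38.0% G and C and the Klf4 window 74.3%, with 2 CpG dinucleotides against 40, each over 300 bases that include 50 after the start.

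The CD11b-high list held 36300 summits and the day-0 list 36137, of which 85 and 96 lay on contigs that were left out. The 8 lists ranged from 31957 summits at 12 days off Dox to 51175 at 4 days off. The score of a summit is the authors' own −log10 value from the peak caller, and it is used here to rank or filter summits. Limits of 5 or 10 were set on both lists alike. For gene lists, single genes and the settings compared at the end, summits below the limit were dropped and regions classed anew. A region that was shared without the limit could then count as exclusive. For gene density, promoter letters and strong regions in the other libraries, the classes were kept and exclusive regions filtered by their own score. Scores of both lists stand side by side in places, but a difference between them was not tested. The median score was 9.44 in the CD11b-high list and 11.5 in the day-0 list. None of the sources used here gives the read depth behind either list. A region without a summit was not called in that list, which does not show that its DNA was closed.

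Shared regions were 52.9% of the 46694 (95% Clopper-Pearson interval 52.5 to 53.4, counting error only, as for all intervals here; neighbouring regions are not independent). CD11b-high-only regions made up 23.4% and day-0-only regions 23.6%, so both exclusive classes were of about the same size. Shared regions were 69.3% of the 35661 regions open in CD11b-high cells and 69.1% of the 35745 open at day 0. Within a shared region the 2 summits lay a median of 25 bp apart, and 68.7% of them lay within 50 bp of each other. Spearman's rho between both scores was 0.75 over the 24712 shared regions, as a description across regions of 1 library pair.

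Strong sites were the common ones. Of the regions in the top decile of CD11b-high scores 97.5% were shared, against 38.7% in the lowest decile. In the day-0 list the top decile was 98.6% shared and the lowest 32.0%. The median score was 6.06 for CD11b-high-only regions and 6.52 for day-0-only regions, and 2221 and 2469 of them reached a score of 10.

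Some exclusive regions lay close to a summit of the other list. A summit of the other list lay within 1 kb of 2515 CD11b-high-only regions (23.0%) and of 1709 day-0-only regions (15.5%). The nearest such summit belonged to a shared region in 74.2% and 60.6% of these cases. The 8434 CD11b-high-only and 9324 day-0-only regions farther than 1 kb from any summit of the other list are called separate below.

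Itgam, the gene of the sorted antigen, had 3 open regions in CD11b-high cells and 1 at day 0 (chromosome 7, 128062640 to 128118491, mm10). The shared region (128050786 to 128051105) lay 11695 bp from the start, with a score of 8.03 in the CD11b-high list and 20.2 in the day-0 list. Both CD11b-high-only regions were weak. The region inside the gene (128065681 to 128065981) lay 3191 bp from the start and scored 5.27, and the outer region (128048754 to 128049054) scored 4.01. The inner region was also called at day 4 and day 8 on Dox and at 4 and 8 days off, and the outer region in no other library. No region lay within 1 kb of the Itgam start. With scores of at least 10 in both lists, neither CD11b-high-only region was left and the shared one counted as day-0-only.

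Itgb2, the beta chain that pairs with CD11b, had 3 CD11b-high-only, 4 day-0-only and 3 shared regions. Its strongest exclusive region was CD11b-high-only (chromosome 10, 77536861 to 77537161, inside the gene) with a score of 17.1, and it was called in all 3 lists on Dox and at 4 days off but not at 8 or 12 days off. Spi1 itself had 2 CD11b-high-only, 1 day-0-only and 2 shared regions (chromosome 2, 91082374 to 91115759). The CD11b-high-only region outside Spi1 (91081100 to 91081400) scored 8.76, lay 1124 bp from the nearer gene end, and was called at all 3 times on Dox and at 4 days off. Csf1r, the receptor for the macrophage growth factor, had 2 CD11b-high-only regions and no other, with scores of 4.14 and 2.31. Neither was called in total cells at day 8 or day 12.

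The 6 lists that played no part in the classes separated them (shown in the plot of the other libraries). In total cells at day 12 on Dox, 52.9% of CD11b-high-only regions were called (51.9 to 53.8), against 22.1% of day-0-only regions (21.3 to 22.9). At 12 days off Dox, 17.4% of CD11b-high-only regions were called (16.7 to 18.1), against 39.1% of day-0-only regions (38.2 to 40.1). So the CD11b-high-only sites were the more frequent ones late on Dox, and the day-0-only sites the more frequent ones late after withdrawal. Both shares depend on how long a list is, but each list is the same for both classes.

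Along the course the CD11b-high-only regions were called in 34.2% at day 4, 67.2% at day 8, 52.9% at day 12, 52.5% at 4 days off, 31.2% at 8 days off and 17.4% at 12 days off. The day-0-only regions were called in 38.8%, 47.3%, 22.1%, 62.3%, 58.5% and 39.1% of cases in the same lists. The order of both classes was thus turned between day 4, where day-0-only regions were ahead, and day 8. Shared regions lay between 84.7% and 94.4% throughout. The day-8 list and the list of 4 days off are the longest of the 6, with 47060 and 51175 summits.

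**Figure D1:**
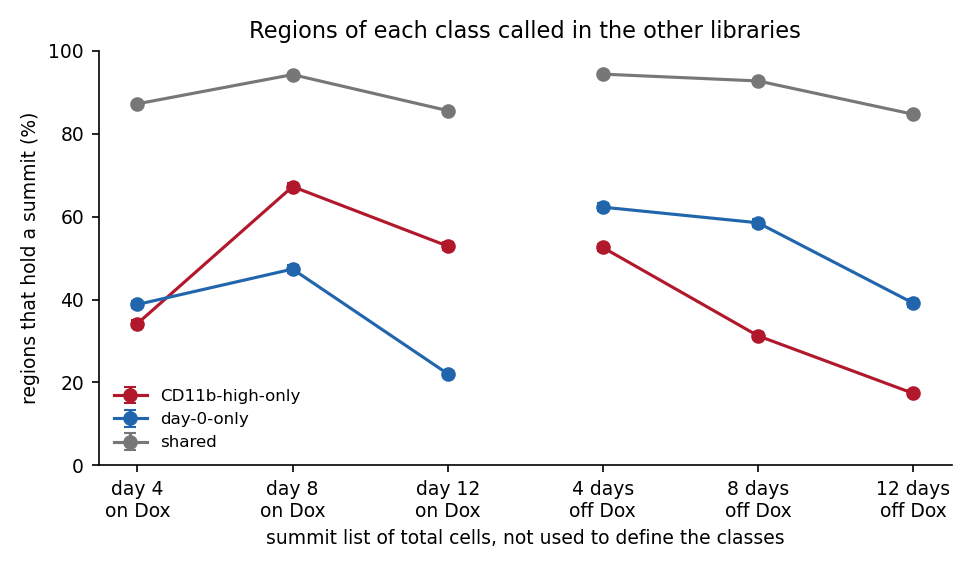
Share of CD11b-high-only, day-0-only and shared regions (percent, y axis) that hold a summit in each of the 6 other lists, in the order of the course (x axis); bars are 95% Clopper-Pearson intervals, most of them smaller than the points. CD11b-high-only regions stand above day-0-only regions at day 8 and day 12 on Dox and below them at all 3 times off Dox.

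By pattern, 24.4% of CD11b-high-only regions were called at all 3 times on Dox, against 11.9% of day-0-only regions. All 3 lists off Dox called 10.3% of CD11b-high-only regions and 27.2% of day-0-only regions. No list off Dox called 40.1% of CD11b-high-only regions, against 22% of day-0-only regions. A pattern of absence on Dox and return at all 3 times off Dox was seen in 504 day-0-only regions (4.57%) and in 43 CD11b-high-only regions (0.39%). Regions seen in none of the 6 other lists were 15% of the CD11b-high-only and 15.8% of the day-0-only class, and their median scores of 4.24 and 4.62 were low within their lists.

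Promoters with a CD11b-high-only region held the PU.1 letters more often than promoters with a day-0-only region. The letters were found in 34 of 399 promoter windows (8.52%, 5.97 to 11.7) of the CD11b-high-only class, against 18 of 693 (2.60%, 1.55 to 4.07) of the day-0-only class. Windows run from 250 bases before to 50 after a start, both strands were searched, and a window with regions of different classes was counted in none of them. Of all 21263 windows 3.13% held the letters, of 8397 with a shared region 2.99%, and of 11613 with none of the regions 3.10%. The day-0-only share lies near these values and the CD11b-high-only share above them.

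The difference was carried by separate regions, a split chosen after the values were seen. Among promoters with a separate region, 28 of 128 (21.9%, 15.1 to 30.0) had the PU.1 letters in the CD11b-high-only class and 10 of 462 (2.16%, 1.04 to 3.94) in the day-0-only class. With a summit of the other list within 1 kb, 6 of 271 CD11b-high-only promoters (2.21%) and 8 of 231 day-0-only promoters (3.46%) had them. The 7 letters AGGAAGT, which hold fewer bases of the same site and include every match of the 8, were in 35.9% of the separate CD11b-high-only promoters, 9.09% of the separate day-0-only promoters and 9.07% of all.

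The base composition of these promoters differed too. Median G and C content was 51.7% in separate CD11b-high-only promoters, with 4 CpG dinucleotides, and 61.7% in separate day-0-only promoters, with 19. Below 55% G and C, 20 of 85 CD11b-high-only promoters (23.5%, 15 to 34.0) had the PU.1 letters, 1 of 101 day-0-only promoters (0.99%, 0.03 to 5.39) and 3.91% of all promoters of that kind. At 55% or more the shares were 8 of 43 (18.6%, 8.39 to 33.4) and 9 of 361 (2.49%, 1.15 to 4.68). The difference was therefore present at both levels of base composition.

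**Figure D2:**
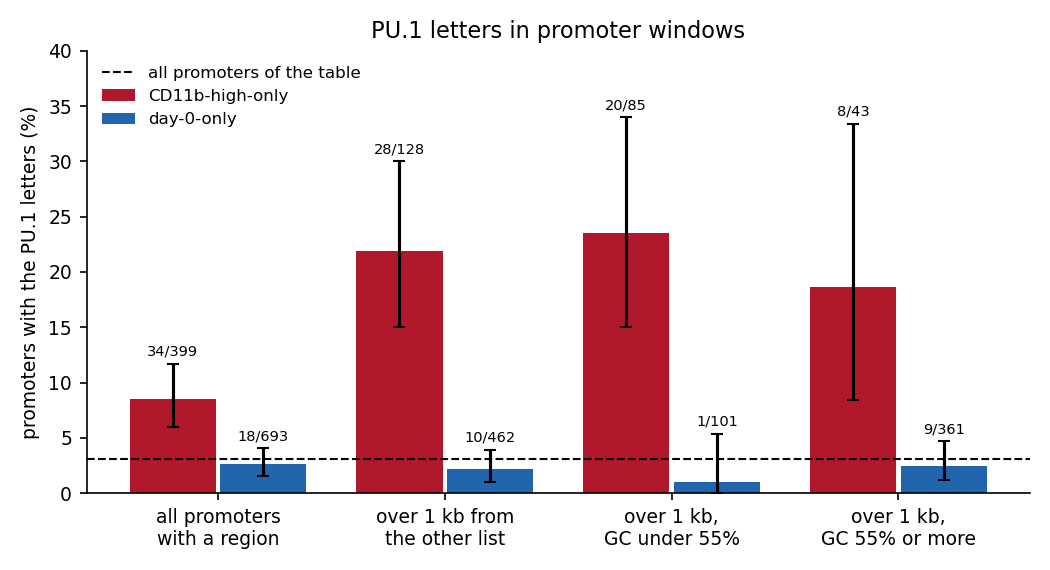
Share of promoter windows with the PU.1 letters (percent, y axis) for CD11b-high-only and day-0-only regions, over all such promoters, those with a separate region, and these split at 55% G and C (x axis); bars are 95% Clopper-Pearson intervals, numbers are promoters with the letters over promoters counted, and the dashed line is the 3.13% of all windows. CD11b-high-only shares reach 23.5% and day-0-only shares stay at 2.60% or less.

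The 28 promoters belonged to 28 genes. Cd300lf, an inhibitory receptor of myeloid cells, scored 22.8, and its PU.1 letters lie just after the start. Tlr9, the receptor for unmethylated CpG DNA, scored 6.55, Sumo3, a protein modifier, 2.30, and Vsig10 4.46. Pirb, Gm15448, Gm14548 and Lilra6 lie near each other on chromosome 7, and Bcl2a1a, Bcl2a1b and Bcl2a1d on chromosome 9. Near-identical copies can share reads, so their regions may not be independent. Keeping 1 promoter per gene and counting each of these families as 1 left 23 of 116 promoters (19.8%, 13.0 to 28.3).

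The letters lay inside the region in 23 of the 28 CD11b-high-only promoters and in 7 of the 10 day-0-only promoters. Their centres ran from −217 to 45 bases relative to the start in the CD11b-high-only class, with a median of −66.5. Of these 28 regions, 13 were called in total cells at day 4, 22 at day 8, 20 at day 12, 17 at 4 days off, 9 at 8 days off and 6 at 12 days off. That is 46.4%, 78.6%, 71.4%, 60.7%, 32.1% and 21.4%. Of the 100 separate CD11b-high-only promoters without the letters, 34%, 72%, 60%, 63%, 37% and 24% were called in the same lists. A difference between these shares was not tested. Of the 10 day-0-only promoters with the letters, 6 were called at day 4, 8 at day 8, 5 at day 12, 10 at 4 days off, 10 at 8 days off and 7 at 12 days off. The 452 without the letters were called in 41.4%, 50.4%, 19.7%, 73.5%, 69.2% and 52.7% of cases in the same order.

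Other letters also differed between the separate promoters. The SP/KLF letters, a G-rich site of promoters with many CpGs, were in 25% (17.8 to 33.4) of CD11b-high-only and 66.0% (61.5 to 70.3) of day-0-only ones, against 46.2% of all windows. The RUNX letters TGTGGT were in 24.2% (17.1 to 32.6) and 13.0% (10.1 to 16.4), against 15% of all windows. GATA letters (AGATAA) were in 12.5% and 4.55%, against 9.65% of all. Below 55% G and C the SP/KLF letters were in 10.6% (4.96 to 19.2) and 25.7% (17.6 to 35.4), the RUNX letters in 31.8% (22.1 to 42.8) and 14.9% (8.56 to 23.3) and the GATA letters in 16.5% (9.31 to 26.1) and 12.9% (7.04 to 21), so that the intervals overlapped for each. All promoters below 55% had 14.1%, 19.8% and 17% in the same order. Over all separate promoters the intervals of both classes overlapped for AP-1 (TGANTCA, 10.9% and 4.11%, against 6.99% of all), for the ETS letters CCGGAAGT (0.78% and 3.68%, against 5.15% of all), which end like the PU.1 letters but cannot match at the same place, and for C/EBP (TTGCNNAA, 11.7% and 7.79%), the E-box (CAGNTG, 53.9% and 50%), IRF (GAAANNGAA, 8.59% and 5.63%) and MYB (AACGG, 12.5% and 17.5%). A match is a description of the letters and does not show that a factor was bound.

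Exclusive regions lay away from promoters. Within 1 kb of a transcription start, or of either gene end where no strand was known, lay 15.9% of CD11b-high-only regions (15.2 to 16.6), 15.2% of day-0-only regions (14.5 to 15.9) and 39.3% of shared regions. Among separate regions the shares were 3.46% (292 of 8434) for CD11b-high-only and 9.52% (888 of 9324) for day-0-only. Of the 1744 CD11b-high-only and 1675 day-0-only regions at starts, 1452 and 787 had a summit of the other list within 1 kb. Elsewhere, 43.8% of CD11b-high-only and 41.8% of day-0-only regions lay inside a gene, and 40.2% and 43.0% outside genes.

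The strongest exclusive regions at starts were all near a summit of the other list. For the 16 named ones, the nearest summit of the other list lay 302 to 489 bp away. Hsph1, a heat shock protein, headed both classes, with a CD11b-high-only region scored 76.6 and a day-0-only region scored 78.1, and the 2 summits were 323 bp apart. Camta1 likewise stood in both, with scores of 48.9 and 63.3. These regions do not show a promoter that was open in only 1 of the 2 libraries.

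Among separate regions at starts, a set looked at after the values were seen, the CD11b-high-only class was headed by Gapt with a score of 26.2. Next were Gm14548 with 24.2, Cpeb2 and Yipf6 with 24.0 each, Cd300lf with 22.8 and Clec4a2, a C-type lectin receptor, with 22.1. Then came Ube2g2 with 20.6, Nasp, a histone chaperone, with 20.03, and Fcgr1, the high-affinity receptor for IgG, and Alox5ap, the partner of 5-lipoxygenase in leukotriene synthesis, with 19.3 each. The nearest day-0 summit lay 1015 bp from the Yipf6 region and 1202 bp from the Nasp region, not far past the 1 kb limit. Yipf6 was called in no total-cell list on Dox, and both were called at 8 and 12 days off. The Fcgr1 region (chromosome 3, 96293812 to 96294112) lay 7 bp from the start. It was called at all 3 times on Dox and at 4 days off, but not at 8 or 12 days off.

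The day-0-only class was headed by Dmwd with a score of 47.2, which was called at day 4 and day 8, not at day 12, and at all 3 times off Dox. Cacng3, a subunit of neuronal channels, scored 32.0, Etv4, an ETS factor of the PEA3 group, 31.5, and Nr1d1, the clock repressor Rev-erb alpha, 28.6. Nr1d1 was called in the same 5 other lists as Dmwd. The Klf4 region (chromosome 4, 55532565 to 55532865) scored 18.0 and was called at 4 and 8 days off and in no list on Dox. Klf4 also had 1 CD11b-high-only region, which was separate and was called in total cells at day 12. The gene thus had 1 exclusive region of each class.

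CD11b-high-only regions lay in sparser stretches of the genome. A median of 10 gene starts lay within 500 kb of a CD11b-high-only region, against 12 for day-0-only and 12 for shared regions. At most 5 gene starts were near 26.8% of CD11b-high-only (25.9 to 27.6), 20.2% of day-0-only (19.5 to 21.0) and 18.4% of shared regions. No protein-coding gene lay within 100 kb of 8.05%, 5.65% and 4.41% of them in the same order.

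Over quintiles of gene density the CD11b-high-only share of exclusive regions was 56.9%, 53.6%, 49.5%, 45.5% and 41.2% (shown in the plot by gene density), against 49.8% over all of them. Among separate regions the share was 57.2% in the sparsest quintile and 34.4% in the densest. Among exclusive regions with a score of at least 10, with the classes kept, it was 58.0% and 36.4%. Over the autosomes and X the share was highest on chromosomes 13 (59.6%), 12 (58.6%) and 1 (56.4%) and lowest on chromosomes 5 (43.8%), 10 (44.6%) and 11 (44.8%), while Y had 2 exclusive regions, both day-0-only. Spearman's rho with genes per megabase was −0.61 over 20 chromosomes, as a description of points that come from the same 2 libraries. The base composition around distal regions was not analysed here, and the part of library depth in this gradient was not tested.

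**Figure D3:**
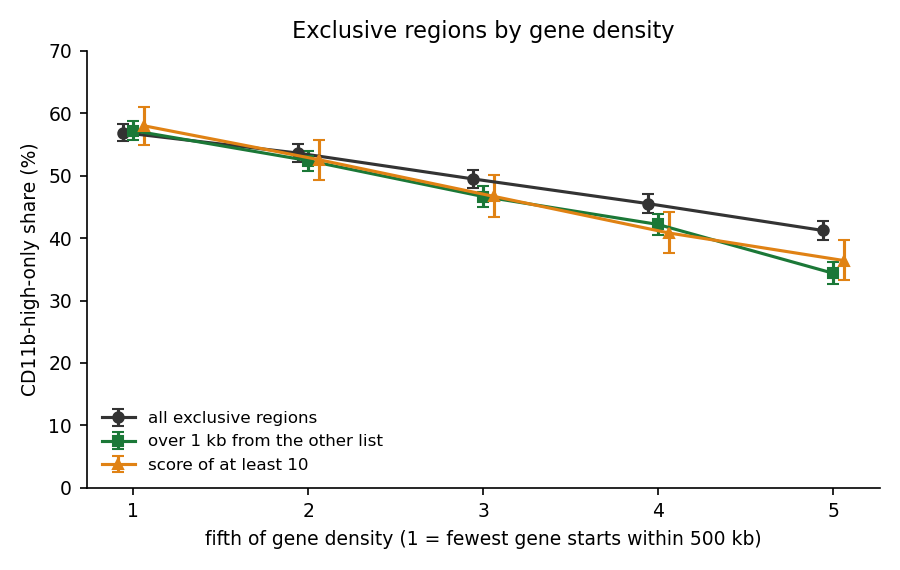
CD11b-high-only share of exclusive regions (percent, y axis) by quintile of gene starts within 500 kb (x axis, 1 is the sparsest), for all exclusive regions, separate regions and those with a score of at least 10; bars are 95% Clopper-Pearson intervals. All 3 lines go down, for all exclusive regions with shares of 56.9% at the left and 41.2% at the right.

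Each region was given to its closest protein-coding gene, up to a distance of 100 kb, which reached 15032 genes. More CD11b-high-only than day-0-only regions were found at 27.0% of these genes and more day-0-only regions at 29.4%, with a median net count of 0. The 24 genes at both ends were named for these counts, so the counts describe them and test nothing.

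Asap1, an Arf GTPase-activating protein of the cell cortex, had the largest net count, with 14 CD11b-high-only, 2 day-0-only and 10 shared regions. Of its 14 CD11b-high-only regions 10 were called in total cells at day 12, and the strongest (chromosome 15, 64100368 to 64100668, inside the gene) scored 19.3. Zfat had 10 CD11b-high-only and 2 day-0-only regions, Oxr1 11 and 4, and Rabgap1l 9 and 2. Pmfbp1 and Lrmda each had 8 and none, and Vps13b, St8sia4 and Mcu, the pore of the mitochondrial calcium uniporter, each 6 and none. Most of these are long genes.

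Etv6, an ETS-family repressor needed by blood stem cells, had 8 CD11b-high-only and 1 day-0-only region. Its highest score was 16.5 (chromosome 6, 134065125 to 134065425, inside the gene), in a region called at all 3 times on Dox and at 4 and 8 days off. St8sia4, a polysialic acid synthase, held a CD11b-high-only region with a score of 16.6 (chromosome 1, 95590127 to 95590427) that was called at all 3 times on Dox and at 4 days off. Snx29 and Cep128 had 8 and 1 each.

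At the other end, Bcor, a corepressor that works with BCL6 and is mutated in myeloid leukaemia, had 1 CD11b-high-only and 10 day-0-only regions. Of these 10, 3 were called at 12 days off. The strongest (chromosome X, 12007115 to 12007415) scored 15.5. Prex1, an exchange factor for Rac in neutrophils, had none and 8, and 5 of the 8 were called at 12 days off. Septin9 had 2 and 9, Kcnip1 1 and 8, and Tead1, Sash1, Hmga2 and Mid1 each none and 7.

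Hmga2, a chromatin protein of embryonic and self-renewing cells, had its strongest day-0-only region 62601 bp from the gene (chromosome 10, 120298517 to 120298817). It scored 15.2 and was called at all 3 times off Dox and at 2 of the 3 on Dox. Xbp1, the transcription factor of plasma cells and of the unfolded protein response, had none and 6, the highest with a score of 22.5 35192 bp away (chromosome 11, 5485299 to 5485599). That region was called at all 3 times on Dox and at none off Dox, while 4 of the other 5 were called at 4 and 8 days off. Bach2, a repressor of lymphoid cells, Ccdc162 and Spocd1 also had none and 6. All 6 Bach2 regions were separate, and 3 of them were called at 12 days off.

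**Figure D4:**
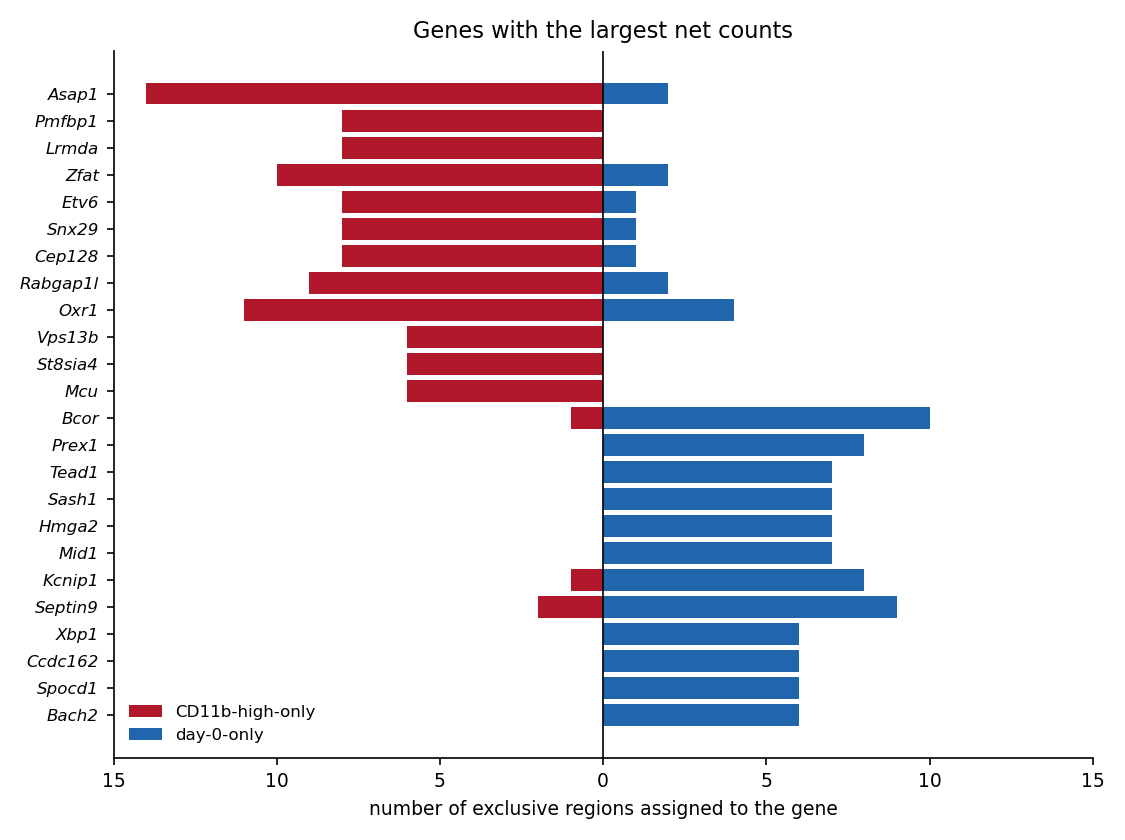
Number of CD11b-high-only regions (bars to the left) and day-0-only regions (bars to the right) near 24 named genes, 12 for each end of the net count. Asap1 reaches 14 on the left and Bcor 10 on the right.

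Exclusive regions of a class also stood in runs with no other region between and gaps of at most 100 kb. The longest CD11b-high-only runs held 7 regions, at Pmfbp1, at Tg and Sla, and in a stretch of chromosome 4 (95205875 to 95303773) with no gene within reach. Sla, whose gene lies within the thyroglobulin gene Tg, encodes an adaptor that dampens receptor signals in blood cells. All 7 regions of the Tg and Sla run (chromosome 15, 66684737 to 66812882) were called in total cells at day 12 and none at 12 days off. The longest day-0-only run held 12 regions within 69.3 kb (chromosome 13, 23450549 to 23519803), at the butyrophilin genes Btn1a1 and Btn2a2 and the histone gene H4c8. None of the 12 was called in total cells at day 12 and 4 at 12 days off. Runs of 8 stood at Etv4, Dhx8, Meox1, Sost and Dusp3, and at Lonrf3 on the X chromosome, and a run of 7 at Oas1h, Rph3a and Ptpn11, the phosphatase SHP2.

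The strongest separate regions lay mostly inside or near genes rather than at starts. Of the CD11b-high-only class, Rufy3 (chromosome 5, 88630917 to 88631217) scored 43.5, the region next to Qrsl1 42.7, Gnptab 40.6, Golga3 39.8 and Cenpn 37.9, and 2 regions at Antxr2 38.9 and 37.7. These 7 were called in total cells at day 4, day 8 and day 12, and 4 of them at 12 days off. Of all CD11b-high-only regions with a score of at least 10, 59.3%, 79.9% and 82.9% were called at these times on Dox and 30.6% at 12 days off. Of the day-0-only class, Dmwd was followed by Cd209a, a lectin of dendritic cells, with 44.1 (chromosome 8, 3754313 to 3754613), Hsd11b1 with 38.7, Ppp1r14c 38.5, Phf21b 35.3, Ces2h 34.4, LOC666331 33.2 and Sh2b3, an adaptor that restrains cytokine receptors, 32.4. All 8 were called at 12 days off. In this class 5 of 8 were called in total cells at day 12. Of all day-0-only regions with a score of at least 10, 64.9% were called at 12 days off and 38.6% at day 12.

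Lists of genes by role, 22 in all, were read as the CD11b-high-only share of their exclusive regions, against 49.2% of the 20478 exclusive regions that have a gene. The interval lay above this value for 3 lists and below it for 1 (shown in the plot of gene lists). Intervals count regions, and regions of the same gene share their source.

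Mast cell and basophil genes had 12 CD11b-high-only regions and 1 day-0-only region (92.3%, 64.0 to 99.8), and 10 of 11 matched genes had a region of any class, with a median net count of 0.5. The 13 exclusive regions lay at 6 of these genes. Kit, the stem cell factor receptor, had 4 and none. Il1rl1, the IL-33 receptor ST2, had 3 and none, the strongest with a score of 9.44 inside the gene (chromosome 1, 40409902 to 40410202), called at all 3 times on Dox. Ms4a2, the beta chain of the IgE receptor, had 2 and none, Gata2 and Mitf 1 and none each, and Prss34 1 and 1. Cpa3, Hdc, Mcpt8 and Tpsb2 had only shared regions, and Fcer1a none. With scores of at least 10 in both lists the count was 2 CD11b-high-only and 3 day-0-only regions (40% CD11b-high-only, against 34.1% over all genes). A fixed score removes more of the CD11b-high list, whose scores are lower, so this background is below 49.2%. Shared regions that lose only their CD11b-high summit then count as day-0-only.

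Stem and progenitor genes had 23 and 11 (67.6%, 49.5 to 82.6), with a median net count of 0 and a lower bound just above the background, and share Kit and Gata2 with the mast cell list. Cd34, the progenitor surface protein, had 5 CD11b-high-only, no day-0-only and 4 shared regions (chromosome 1, 194938821 to 194961292). The strongest (194943571 to 194943871) lay inside the gene with a score of 25.7 and was called in all 6 other lists. Kit had a CD11b-high-only region 818 bp from its start (chromosome 5, 75575659 to 75575959) with a score of 17.2, next to a shared one at the start. Lmo2, a bridging protein of the blood stem cell programme, had 4 and 1. In the other direction, Myb, a factor of dividing progenitors, had 1 and 3, and Sox4 none and 2. Myc had 1, none and 5 shared regions. At scores of at least 10 the list had 6 and 18 (25%, against 34.1% over all genes), so the direction of its count turned. The 18 can include regions that were shared without the limit.

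Cytokines, chemokines and their receptors had 27 and 10 (73.0%, 55.9 to 86.2), with a median net count of 1. At scores of at least 10 they had 12 and 12 (50%, against 34.1%). Ccr2, the receptor that guides monocytes, had 3 and none, the strongest with a score of 19.3 (chromosome 9, 124112644 to 124112944). Ccl6 had 3 and none, with 16.2 at the highest. Il1b, the inflammatory cytokine, had 3 and none, each with a score of 4.24, and Il1a 2 and none. Cxcr4 had 4 and 2, and Cxcl2 and Il6 had 1 day-0-only region more than CD11b-high-only ones.

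In the other myeloid lists the interval held the background of 49.2%. Fc receptors and immunoreceptor signalling had 30 and 17 (63.8%, 48.5 to 77.3), among them the kinases Lyn with 5 and 2 and Syk with 5 and 3, and the lectins Clec4d and Clec4e with 2 and none each. Pattern recognition and NF-kB genes had 27 and 18, with Nod1 at 4 and none, Nod2 at 3 and none, Tlr6 at none and 3 and Tnfaip3 at 1 and 3. Phagocyte oxidase and lysosome genes had 22 and 15, with the protease Ctsd at 5 and 1, the oxidase subunits Ncf4 at 3 and 1 and Ncf1 at none and 2. Monocyte and macrophage genes had 16 and 11 (59.3%, 38.8 to 77.6), with Adgre1, which encodes F4/80, at 2 and none and Ly6c2 at none and 3. Granulocyte genes had 14 and 11, with the collagenase Mmp8 at 3 and none, the highest with a score of 24.7, and Gfi1, a repressor of granulocyte progenitors, at none and 3. The exclusive regions of Clec4e, Tlr6 and Gfi1 all lay within 1 kb of a summit of the other list, so none of them was separate. Genes of MHC class II and antigen presentation, called the MHC class II list below, had 7 and 5. The list also holds genes other than class II genes. Its CD11b-high-only regions lay at Cd74 with 2 and at H2-Aa, H2-Ab1, H2-DMb1, Cd86 and Ciita with 1 each. Its day-0-only regions lay at H2-Eb1, Ciita, Zbtb46, Cd209a and Cd86 with 1 each. Eosinophil genes had 10 and 5, and leukocyte integrins 23 and 19. With scores of at least 5 in both lists the day-0-only regions were the more numerous in the monocyte, MHC class II and integrin lists. The CD11b-high-only shares of these lists were 42.3%, 47.1% and 46.2%, against 44.6% over all genes. At a limit of 10 day-0-only regions were the more numerous in the monocyte, MHC class II, granulocyte and pattern recognition lists. Their CD11b-high-only shares were 35%, 23.1%, 33.3% and 42.9%, against 34.1% over all genes. Integrins had 58.3% CD11b-high-only regions at that limit, Fc receptors 56.25%, phagocyte genes 50% and eosinophil genes 85.7% (6 of 7).

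Myeloid transcription factors had 23 and 23. Runx1 had 6 and 4, Jun and Id2 2 and 1 each, while Bach1 had none and 5, Fosl2 1 and 3, and Irf8, a factor of monocytes and dendritic cells, none and 2. The stronger Irf8 region (chromosome 8, 120796338 to 120796638) scored 13.3 and was not called in total cells at day 12, but at all other times. Growth factor receptors had 16 and 11. The BCL2 family had 12 and 6 (66.7%, 41.0 to 86.7), with Bcl2 itself at 5 and none, the strongest inside the gene with a score of 21.1 (chromosome 1, 106627362 to 106627662), and Bad at none and 2.

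B cell genes stood at the other end, with 1 CD11b-high-only and 15 day-0-only regions (6.25%, 0.16 to 30.2) and a median net count of −1.5. Bach2 had none and 6, Pax5, the factor that commits cells to the B lineage, none and 4, Ebf1 1 and 3, and Igll1 and Cd22 none and 1 each. The Pax5 regions all lay inside the gene, with scores of 5.94 to 9.20, and of the 4, 3 were called in total cells at day 4, 1 at day 8 and 1 at day 12. Cd79a, Cd79b, Ms4a1, Vpreb1 and Rag1 had no region. At scores of at least 10 the list had 1 and 4 (20%, against 34.1%). Without Bach2, which is also among the named genes, the counts were 1 and 9.

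Erythroid genes had 2 and 8 (20%, 2.52 to 55.6), with Nfe2 at none and 2, and Gata1, Hbb-bt, Hba-a1, Alas2 and Epb42 without a region. Megakaryocyte genes had 8 and 12, with Fli1 at 5 and 1 and Vwf at none and 4. Cell cycle and replication genes had 15 and 20 (42.9%, 26.3 to 60.6), with Ccnd2 at 1 and 4, Cdk1 at none and 3 and Mki67 at 4 and 1. T cell genes had 10 and 7, interferon response genes 12 and 11, housekeeping genes 11 and 9, and genes of non-blood tissues 9 and 11. For all of these the interval held the background of 49.2%.

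**Figure D5:**
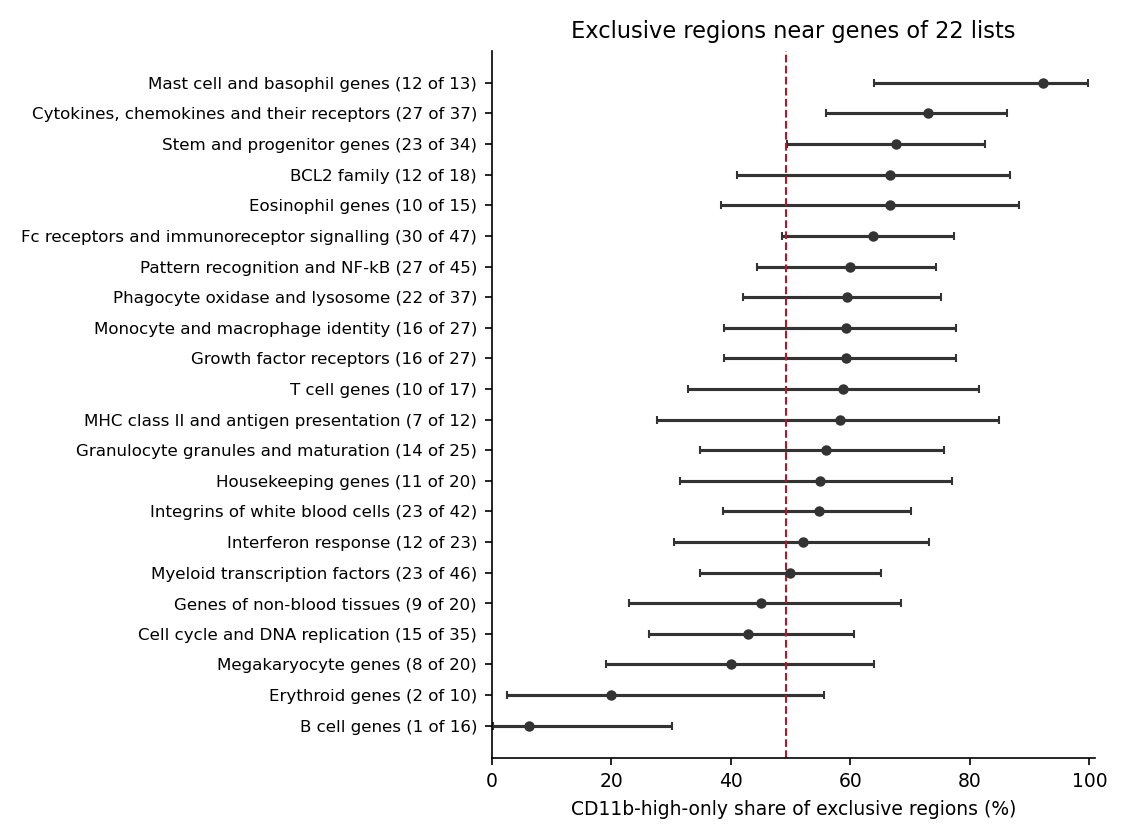
CD11b-high-only share of exclusive regions (percent, x axis) for 22 gene lists, with the CD11b-high-only count out of all exclusive regions beside each name; bars are 95% Clopper-Pearson intervals and the dashed line is the 49.2% over all genes. Mast cell and basophil genes stand at the top with 92.3% and B cell genes at the bottom with 6.25%.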

How the data were processed

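ATAC-seq was run on 1 library for each of 8 groups, and the CD11b-high and day-0 lists are compared here. Per the labels, each library was made from 50000 cells with the Nextera kit, and fragments of 200 to 700 bp were read on a NextSeq500 as 75 bp pairs. The labels' extraction text also mentions ChIP, although the title and the library text name ATAC-seq. The authors deposited a summit list per library with a score per summit, a −log10 p or q value (none of the sources used here says which). MACS2, Picard 2.14.0 and mm10 are named in the submitters' processing notes. None of the sources used here gives the aligner, the MACS2 version or the depth.

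Summits were widened by 150 bp and merged with Python 3.11.15, pandas 2.3.3 and NumPy 2.4.6. Each region went to its closest protein-coding gene, at most 100 kb away, in RefSeq (GRCm38.p6), and 344 of 346 listed genes were matched. Strand and start were known for 17492 genes, and gene ends stood in elsewhere. Intervals are 95% Clopper-Pearson (SciPy 1.17.1) and plots are from Matplotlib 3.10.9. Motif letters were searched in promoters only, since no genome sequence was used here, and exons, introns and UTRs were not analysed here.

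Named genes were the 12 with the largest net count in each direction, the 8 strongest start regions and separate regions per class, the 4 longest runs per class and the list members. The members and lists were chosen with earlier results of these data known. Alternatives were score limits, other extensions, lists of equal length, other start windows and gene distances, and regions merged over all 8 lists. Scripts were checked on simulated data. A few of the genes that these rules name are not reported here.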

Additional observations from a re-analysis of the deposited data

Results flagged for a closer look

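Summits on contigs other than chromosomes 1 to 19, X and Y were outside the comparison, and both lists held some. There were 85 in the CD11b-high list and 96 in the day-0 list, a signal in data that was not otherwise used. With 1 library per group, no outlying sample and no difference between groups could be tested.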

How the results depend on the processing

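No paired analysis was possible because each group held 1 library, and no replicate could be left out. In all alternatives run, CD11b-high-only regions were more often called in total cells at day 12 than day-0-only regions, and less often at 12 days off Dox. With scores of at least 10 there were 3897 CD11b-high-only, 7259 day-0-only and 13068 shared regions. Regions were classed anew at each limit, so these exclusive regions include ones that were shared without it. CD11b-high-only and day-0-only shares called at day 12 were then 86.9% and 63.5%, at 12 days off 49.0% and 77.3%, and at starts 19% and 24.6%, with 58.6% of shared regions at starts. At a limit of 5 they were 64.5% and 33.1% at day 12 and 24.5% and 50.6% at 12 days off, with 16% of day-0-only and 43.8% of shared regions at starts. With summits widened by 75 bp they were 43.0% and 21.2% at day 12 and 20.3% and 18.5% at starts, with 34.2% of day-0-only regions at 12 days off. With 250 bp they were 56.5% and 23.0% at day 12, 16.6% and 42.1% at 12 days off and 8.24% and 12.1% at starts. For separate regions they were 54.2% and 21.1% at day 12 and 3.46% and 9.52% at starts, with 14.0% of CD11b-high-only regions at 12 days off. Merged over 8 lists they were 55.9% and 24.0% at day 12 and 13.7% for both at starts, with 42.6% of day-0-only regions at 12 days off. A start window of 500 bp gave 11.1%, 10.7% and 36.4% for CD11b-high-only, day-0-only and shared regions, and a window of 2 kb gave 18.9%, 19.9% and 42.4%.

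The following promoter alternatives were chosen after seeing the data. The PU.1 letters were in 21.9% of CD11b-high-only promoters with a separate region, in 23.1% with 1 promoter per gene, 19.8% with 1 per gene and family, 34.6% at scores of at least 10, 23.5% under and 18.6% over 55% G and C, and the 7 letters in 16.5% of all CD11b-high-only promoters. For day-0-only promoters the share was 4.55% at scores of at least 10, 0.99% under 55% G and C, and 8.95% for the 7 letters.

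Net counts (CD11b-high-only minus day-0-only) changed sign with scores of at least 5 for monocyte and macrophage genes (−4), integrins (−2), MHC class II (−1) and housekeeping genes (−2). With scores of at least 10 they did so for monocyte and macrophage genes (−6), granulocyte genes (−3), mast cell and basophil genes (−1), pattern recognition (−3), growth factor receptors (−6), MHC class II (−7), stem and progenitor genes (−12), T cell genes (−11), housekeeping genes (−5), Lrmda (−1), Oxr1 (−1) and Itgam (−1). Results with a small net count in the main setting were not counted here. Interferon response genes were such a list, with 12 of 23 CD11b-high-only regions in the main setting and 1 of 7 at a limit of 10. A fixed score limit removes more of the CD11b-high list by construction, since its scores are lower. Shared regions that lose only their CD11b-high summit then count as day-0-only, so a changed sign does not describe the exclusive regions of the main setting alone. Over all genes the CD11b-high-only share was 44.6% at a limit of 5 and 34.1% at 10. Of the lists named at 10, the monocyte (35%), mast cell (40%) and pattern recognition (42.9%) lists lay above this share and the others below. Read depth is unknown, so an absent summit may be a site below the limit of detection.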
